A study of Mus musculus with 9 samples.

Results

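Translation initiation factors are the proteins that bring the ribosome, the initiator transfer RNA and the messenger RNA together at a start codon. Their genes were taken as every mouse gene whose symbol begins with Eif and a digit, without the sex-linked pair Eif2s3x and Eif2s3y. Each gene was represented by the probe set that named it alone and had the highest mean log2 signal over the 9 arrays. This gave 45 genes of 18193 named in that way. Of these, 44 passed a filter on dim probe sets and were among the 11644 genes tested. Eif4a3, a helicase of the exon junction complex that carries an initiation factor name, did not pass, with signals of 1.6, 2.2, 0.9 and 2.2 in tumours 1 to 4, 0.9, 0.8 and 0.8 in pre-transformed and 0.8 and 0.5 in control cells. Only 1 probe set named Eif4a3 alone, so a silent gene and a probe set that does not respond cannot be told apart. Members covered only by probe sets that named several genes were not analysed here. Eif1, Eif2s1, Eif3g and Eif4g1 were not among the 45 genes, so the counts by role below do not cover whole complexes.

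In a mammalian cell, eIF2 bound to GTP carries the initiator methionyl-tRNA to the small ribosomal subunit, where eIF1, eIF1A, eIF3 and eIF5 also sit. The eIF4 factors bring the mRNA: eIF4E binds the cap, eIF4G is a scaffold and eIF4A, with eIF4B or eIF4H, unwinds the 5′ leader. The complex scans to a start codon, eIF5 promotes GTP hydrolysis, and eIF5B joins the large subunit. The exchange factor eIF2B reloads eIF2 with GTP, and kinases that phosphorylate the alpha subunit of eIF2 block this step under stress. The 4E-binding proteins hold eIF4E away from eIF4G until the mTOR complex mTORC1 phosphorylates them. Developing T cells change their rate of protein synthesis as they pass between resting and dividing stages, and CD4+CD8+ double-positive (DP) thymocytes are mostly small resting cells.

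RNA levels were measured in thymic cells of C57Bl/6 mice, 1 mouse per oligonucleotide array, in 3 groups. The tumour group held 4 thymic tumours of R26NC/NC CD4Cre+ mice aged 28, 26, 23 and 21 weeks (tumours 1 to 4), which expressed an activated β-catenin, the effector of Wnt signalling. The pre-transformed group held DP thymocytes of 3 R26NC/NC CD4Cre+ mice aged 6 weeks, when the thymus was of normal size and its cells polyclonal. The control group held DP thymocytes of 2 R26NC/NC CD4Cre- mice aged 6 weeks, so that all 9 mice carried the R26NC allele and the groups with active β-catenin also carried Cre under Cd4 control. Tumours were not sorted and held at least 95% DP cells, whereas DP cells of the other groups were sorted to over 98% and are called sorted arrays below. Tumour RNA (2.5 µg) was labelled by the standard biotin protocol and sorted-cell RNA (0.1 µg) by an amplification kit. Transformation, age, sorting and labelling therefore cannot be told apart in either tumour comparison. Signals are MAS5 values on a linear scale, with every array scaled to the same trimmed mean of 100. Group signals are geometric means, changes are differences of mean log2 signal, and a gene was called at an adjusted p under 0.05 over all genes tested. The arrays measure RNA, not protein or phosphorylation, and their number (4 tumours, 3 pre-transformed and 2 controls) limits the precision of each value.

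The tumours were not all alike in cells other than thymocytes. Cd4 and Cd8a, which define DP cells, were bright on all 9 arrays, but 10 of the 11 tested DP markers were lower in tumours than in pre-transformed cells, and Ptcra, the pre-T-cell receptor alpha chain, read 5.2, 2.7, 3.6 and 6.8 in tumours 1 to 4, against 251, 214 and 228 in pre-transformed and 372 and 318 in control cells. Signals of 12 macrophage and neutrophil markers summed to 3829.3, 176.7, 4155.3 and 3494.2 in tumours 1 to 4, against 175.5 to 361.3 in pre-transformed and 162.8 to 238.7 in control cells. In tumour 2 the macrophage gene C1qa was at 0.4 and the neutrophil gene S100a9 at 0.8, but Itgam, an integrin of myeloid cells, read 113.2 there, the highest of the 9 arrays and most of the sum. The 5 measured B-cell markers summed to 487.8, 15.7, 401.2 and 640.7 in the tumours, against 233.0 to 253.3 in pre-transformed and 260.5 to 285.4 in control cells. The sums of sorted arrays were mostly Cd79b, which read 80.7, 1.3, 73.6 and 108.5 in the tumours, against 195.8 to 215.2 in pre-transformed and 235.1 to 253.9 in control cells. Ms4a1, which encodes the B-cell antigen CD20, ran the other way, with 197.9, 5, 138.9 and 269.7 in the tumours, against 1.5 to 8.9 in pre-transformed and 6.8 on both control arrays. Fewer cells of a type and less RNA per cell cannot be told apart in such samples. Values with tumour 2 as the only tumour are therefore given beside the main counts.

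Initiation factor RNAs were mostly higher in tumours than in pre-transformed cells. Of the 44 genes tested, 24 rose and 5 fell, while 15 were not called. Among all 11644 genes tested, 23.9% were called higher and 31.0% lower. The median log2 change was 0.74 over the initiation factor genes, against -0.12 over all genes tested. The median lay 0.86 above that of all genes in the deposited scale and 0.46 above it after quantile normalization. With tumour 2 as the only tumour, the median log2 change was 0.75, against -0.16 over all genes tested. The spread between tumours cannot be measured on 1 tumour, so no count of calls is given for it. All 4 tumours lay above all 5 sorted arrays for 23 of the 44 genes and below them for 4, compared with 21.9% and 28.8% of all genes tested.

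**Figure D1:**
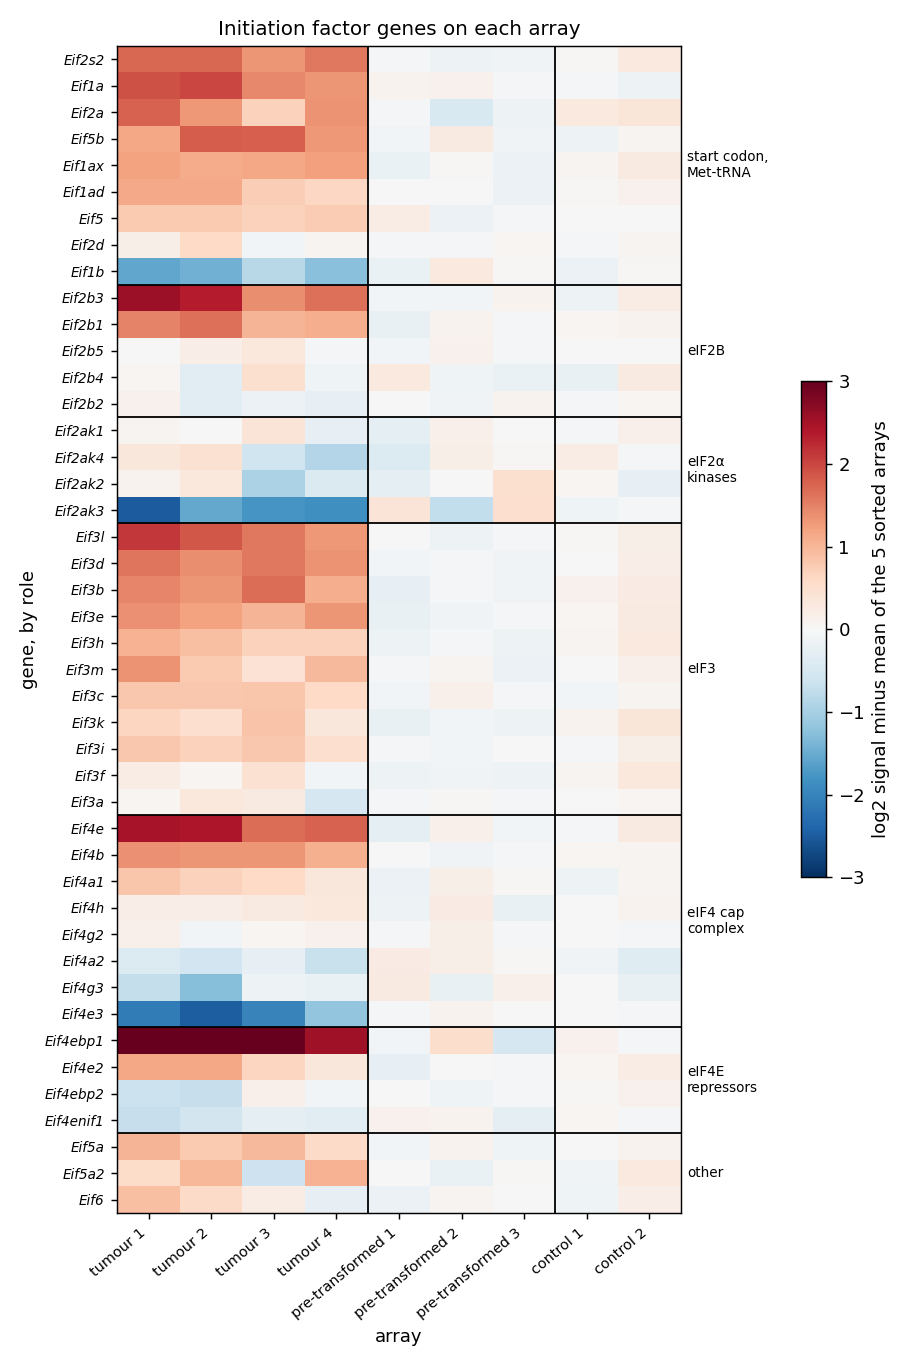
Log2 MAS5 signal of the 44 tested genes on each of the 9 arrays (columns), minus the mean of the 5 sorted arrays for that gene, with red for higher and blue for lower and genes (rows) grouped by role. The 4 tumour columns carry nearly all of the colour, most of it red, while the blue rows include Eif1b, Eif2ak3 and Eif4e3.

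Against controls, tumours showed 23 of the 44 genes higher and 3 lower, where 20.5% of all genes tested were called higher and 25.2% lower. The median log2 change was 0.64, against -0.08 over all genes. This comparison depended more on scaling: 13 rose and 7 fell with arrays centred on their median signal, where 10.8% of all genes were called higher and 35.5% lower. After quantile normalization 20 rose and 6 fell, against 19.1% and 22.9% of all genes. Without control 1, 16 rose and 3 fell, and the shares of all genes were 10.1% higher and 12.1% lower. With tumour 2 as the only tumour, the median log2 change was 0.72, against -0.09 over all genes. Both tumour comparisons use the same 4 tumours. The genes called against pre-transformed cells only were Eif3k, at a log2 change of 0.74 (SE 0.14, limma adjusted p = 0.00163) against pre-transformed cells and 0.35 (SE 0.16, limma adjusted p = 0.102) against controls, and the falling genes Eif4a2 and Eif4enif1 described below. No test was made of the difference between the 2 comparisons.

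Before transformation, none of the 44 genes was called between pre-transformed and control cells, where 1.63% of all genes tested were called. The log2 changes ran from -0.55 for Eif2a to 0.39 for Eif4a2, and their 95% intervals together spanned -0.90 to 0.88. At an unadjusted p under 0.05, 8 genes were lower (Eif1ax, Eif2a, Eif2s2, Eif3b, Eif3e, Eif3f, Eif3h and Eif3k) and 1 was higher (Eif4a2), compared with 7.87% and 9.70% of all genes tested in those directions. Of the 11 eIF3 genes, 10 had a negative change, with a median of -0.17, against 0.02 over all genes. None of these passed the adjustment over all genes tested. Leaving out pre-transformed 2 was the one alternative that called a gene, the kinase Eif2ak3, with a log2 change of 0.54.

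**Figure D2:**
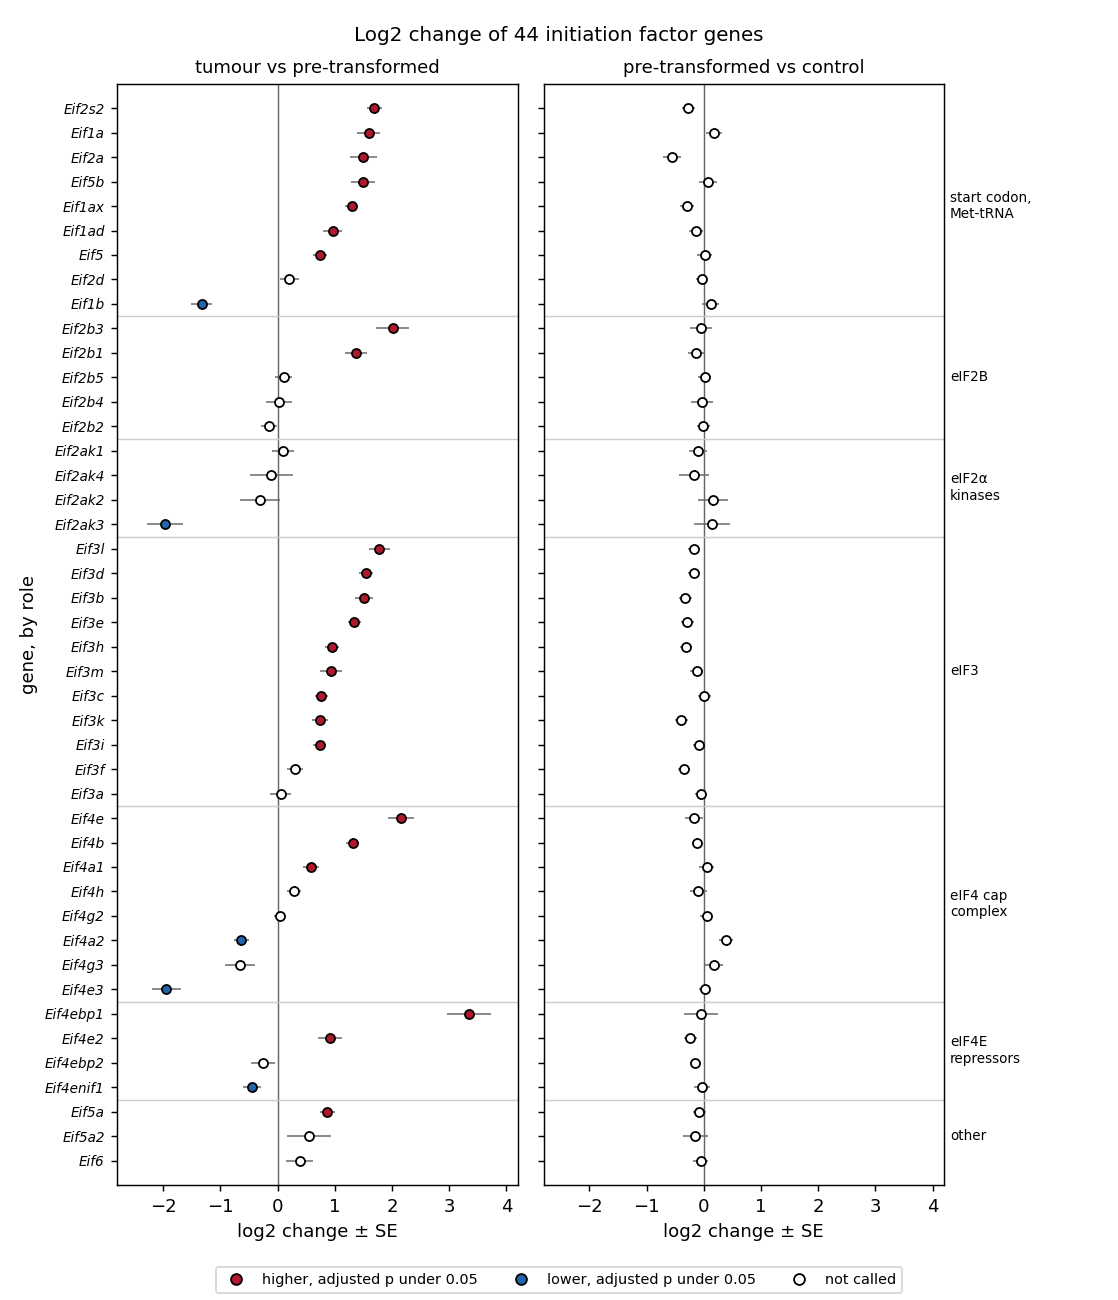
Log2 change with its SE for the 44 tested genes (rows, grouped by role), for tumours against pre-transformed cells on the left and for pre-transformed cells against controls on the right. Filled points passed an adjusted p under 0.05: 24 higher and 5 lower on the left, and none on the right.

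Of the 9 genes for start codon recognition and delivery of the initiator tRNA, 7 rose and 1 fell in tumours against pre-transformed cells. Counts by role are to be read against the 23.9% and 31.0% of all genes tested that were called higher and lower. Eif2s2, the beta subunit of eIF2, had signals of 4064, 4059, 3108 and 3699.5 in tumours 1 to 4, against 1183, 1108 and 1149.7 in pre-transformed and 1259 and 1518 in control cells. The tumours lay far above both sorted groups, 3.24-fold over pre-transformed cells, with a log2 change of 1.69 (SE 0.13, limma adjusted p = 1.32e-05). Eif1ax and Eif1a encode the near-identical eIF1A proteins, which help the scanning ribosome, so that their probe sets may read each other's RNA. Signals for Eif1ax were 1649, 1547, 1616 and 1682 in tumours 1 to 4, against 622, 739 and 631 in pre-transformed and 757 and 872 in control cells, a log2 change of 1.29 (SE 0.12, limma adjusted p = 2.77e-05). For Eif1a they were 412, 445, 298 and 275 in tumours 1 to 4, against 119, 121 and 109 in pre-transformed and 106 and 98.8 in control cells, a log2 change of 1.59 (SE 0.20, limma adjusted p = 0.000138). No tumour overlapped a sorted array for either gene. The Eif1ax call was lost without suffixed probe sets, where another, dimmer probe set gave 0.41.

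Eif1b ran the other way. It is a close relative of eIF1, the factor that guards against starting at a wrong codon. Its signals were 552, 595, 905 and 675 in tumours 1 to 4, against 1422, 1998 and 1661 in pre-transformed and 1426 and 1667 in control cells. All tumours were below all sorted arrays, 2.51-fold lower than pre-transformed cells, with a log2 change of -1.33 (SE 0.19, limma adjusted p = 0.000284). Among the other genes of this group, Eif2a, which can deliver initiator tRNA by another route, rose by 1.5 on the log2 scale and the subunit-joining GTPase gene Eif5b by 1.49. Eif1ad, which encodes a protein with an eIF1A domain, rose by 0.96, and Eif5, the GTPase activator of eIF2, by 0.75, with limma adjusted p of 0.00101 or less for these 4 genes. Eif2d, another factor that can bring tRNA to the small subunit, had a log2 change of 0.21 (SE 0.17, limma adjusted p = 0.323) and was not called.

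Of the genes for the 5 subunits of eIF2B, which work as 1 complex, 2 rose in tumours against pre-transformed cells and 3 were not called. Among all genes tested, 23.9% were called higher. Eif2b3, a subunit of the catalytic part, had signals of 388, 332, 171 and 205 in tumours 1 to 4, against 61.8, 61.5 and 70 in pre-transformed and 58.4 and 75.7 in control cells. Eif2b1, a regulatory subunit, had 460, 515, 331 and 348 in tumours 1 to 4, against 139.8, 176 and 156 in pre-transformed and 169 and 176 in control cells. For both genes every tumour was above every sorted array, with log2 changes of 2.01 (SE 0.29, limma adjusted p = 0.000284) for Eif2b3 and 1.37 (SE 0.19, limma adjusted p = 0.000243) for Eif2b1. Eif2b2, another regulatory subunit, had 824, 607, 669 and 631 in tumours 1 to 4, against 744, 701 and 812 in pre-transformed and 721 and 788 in control cells. Its groups overlapped, and its log2 change was -0.15 (SE 0.14, limma adjusted p = 0.392). Eif2b4, also regulatory, had a log2 change of 0.03, and Eif2b5, the subunit that carries the exchange activity, one of 0.11; neither was called. The 95% intervals of these 3 changes were -0.46 to 0.17 for Eif2b2, -0.46 to 0.52 for Eif2b4 and -0.22 to 0.43 for Eif2b5, all below the interval of 1.37 to 2.65 for Eif2b3.

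Of the 4 kinases that phosphorylate eIF2, Eif2ak3 was the one called on the probe set used. It encodes PERK, the kinase that senses stress in the endoplasmic reticulum. Its signals were 134, 261, 222 and 213 in tumours 1 to 4, against 991, 457 and 1081 in pre-transformed and 697 and 730 in control cells. Tumours were 3.91-fold lower than pre-transformed cells and did not overlap the sorted arrays, with a log2 change of -1.97 (SE 0.31, limma adjusted p = 0.000547). Pre-transformed 2 was the lowest of the sorted arrays, at 457. Eif2ak2, which encodes the double-stranded RNA sensor PKR, read 50, 57.5, 24 and 34.2 in tumours 1 to 4, against 37.7, 46.8 and 64.4 in pre-transformed and 48.5 and 38.9 in control cells. Eif2ak1, which encodes the haem-regulated inhibitor, read 159.9, 151, 197 and 127 in tumours 1 to 4, against 123, 167 and 153 in pre-transformed and 147 and 167 in control cells. On these probe sets both overlapped between groups, with log2 changes of -0.31 (SE 0.34, limma adjusted p = 0.47) for Eif2ak2 and 0.10 (SE 0.20, limma adjusted p = 0.696) for Eif2ak1. Dimmer probe sets went apart from these. For Eif2ak1, 1421900_at read 109.5, 96.3, 104.9 and 98.2 in tumours 1 to 4, against 52, 39.8 and 42.7 in pre-transformed and 54.1 and 56.8 in control cells, with every tumour above every sorted array and a log2 change of 1.20 (SE 0.20, limma adjusted p = 0.000953). For Eif2ak2, 1422005_at gave -1.21 (SE 0.33, limma adjusted p = 0.014). Eif2ak4, which encodes the amino acid sensor GCN2, was dim on all arrays, with a log2 change of -0.11 and an interval of -0.95 to 0.73, too wide to show its direction.

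Subunits of eIF3, the large scaffold that binds the small ribosomal subunit, mostly rose. Of 11 genes, 9 rose and none fell in tumours against pre-transformed cells, with a median log2 change of 0.94. Eif3d, a subunit that can itself contact the mRNA cap, had signals of 2287, 1959, 2228 and 1895 in tumours 1 to 4, against 708, 736 and 700 in pre-transformed and 755 and 854 in control cells. Eif3e had 6492, 5766, 5084 and 6258 in tumours 1 to 4, against 2161, 2333 and 2453 in pre-transformed and 2619 and 3043 in control cells. Eif3l had 3200.4, 2669, 2201 and 1833 in tumours 1 to 4, against 734, 663 and 722 in pre-transformed and 755 and 828 in control cells. In all 3 genes every tumour was well above every sorted array. The log2 changes were 1.55 (SE 0.12, limma adjusted p = 1.35e-05) for Eif3d, 1.35 (SE 0.12, limma adjusted p = 2.43e-05) for Eif3e and 1.78 (SE 0.18, limma adjusted p = 4.33e-05) for Eif3l. Eif3b, the core subunit with a WD-repeat propeller, rose by 1.51, Eif3h by 0.95 and Eif3m by 0.94. Eif3c rose by 0.76, Eif3k by 0.74 and Eif3i by 0.74, and the limma adjusted p was 0.00253 or less for these 6 genes. The Eif3c call was lost with the mean of its probe sets (0.37, limma adjusted p = 0.0695).

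Eif3f and Eif3a were not called, with log2 changes of 0.30 (SE 0.14, limma adjusted p = 0.0863) for Eif3f and 0.06 (SE 0.18, limma adjusted p = 0.805) for Eif3a. For Eif3a, the largest subunit, the answer depended on the probe set. The brightest, 1448425_at, read 2066, 2456, 2378 and 1396 in tumours 1 to 4, against 1895, 2018 and 1928 in pre-transformed and 1981 and 2056 in control cells. Another, 1416659_at, read 1469, 1480.3, 1188 and 849 in tumours 1 to 4, against 816, 554 and 719 in pre-transformed and 871 and 799 in control cells. On it each tumour was above each sorted array, except that tumour 4 was below control 1, with a log2 change of 0.82 (SE 0.21, limma adjusted p = 0.0103) over all kept probe sets. Probe set 1416660_at read 681, 871, 210.1 and 156 in tumours 1 to 4, against 90.4, 115 and 142 in pre-transformed and 124 and 148 in control cells, with a log2 change of 1.71 (SE 0.55, limma adjusted p = 0.0272). Probe set 1416661_at read 124, 179, 12.4 and 11.5 in tumours 1 to 4, against 68.2, 96.7 and 69.9 in pre-transformed and 113 and 155 in control cells, with a log2 change of -0.87 (SE 0.92, limma adjusted p = 0.453).

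On 1416661_at tumours 3 and 4 were the lowest arrays of all, while tumours 1 and 2 were within or near the sorted range. The same split appeared for Eif3c on 1415859_at, which read 863, 577, 105 and 131 in tumours 1 to 4, against 527, 578 and 393 in pre-transformed and 578 and 845 in control cells, although 3 other probe sets of Eif3c were called higher in tumours. A measure that can move with RNA quality or labelling was also highest in tumours 3 and 4. The log2 ratio of the 3′ to the 5′ control probe set of β-actin was 0.62, 0.54, 0.92 and 1.14 in tumours 1 to 4, against 0.20 to 0.35 in pre-transformed and 0.24 to 0.26 in control cells. The ratio averaged 0.81 ± 0.28 in tumours and 0.26 ± 0.05 on sorted arrays (SD, n = 4 and 5, two-sided exact permutation test, p = 0.00794, the smallest that these arrays allow). For Gapdh it averaged -0.31 ± 0.19 in tumours and -0.20 ± 0.12 on sorted arrays (exact permutation p = 0.317). The part of RNA quality and labelling in these probe sets was not tested, and where each probe set lies along its transcript was not analysed here.

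**Figure D3:**
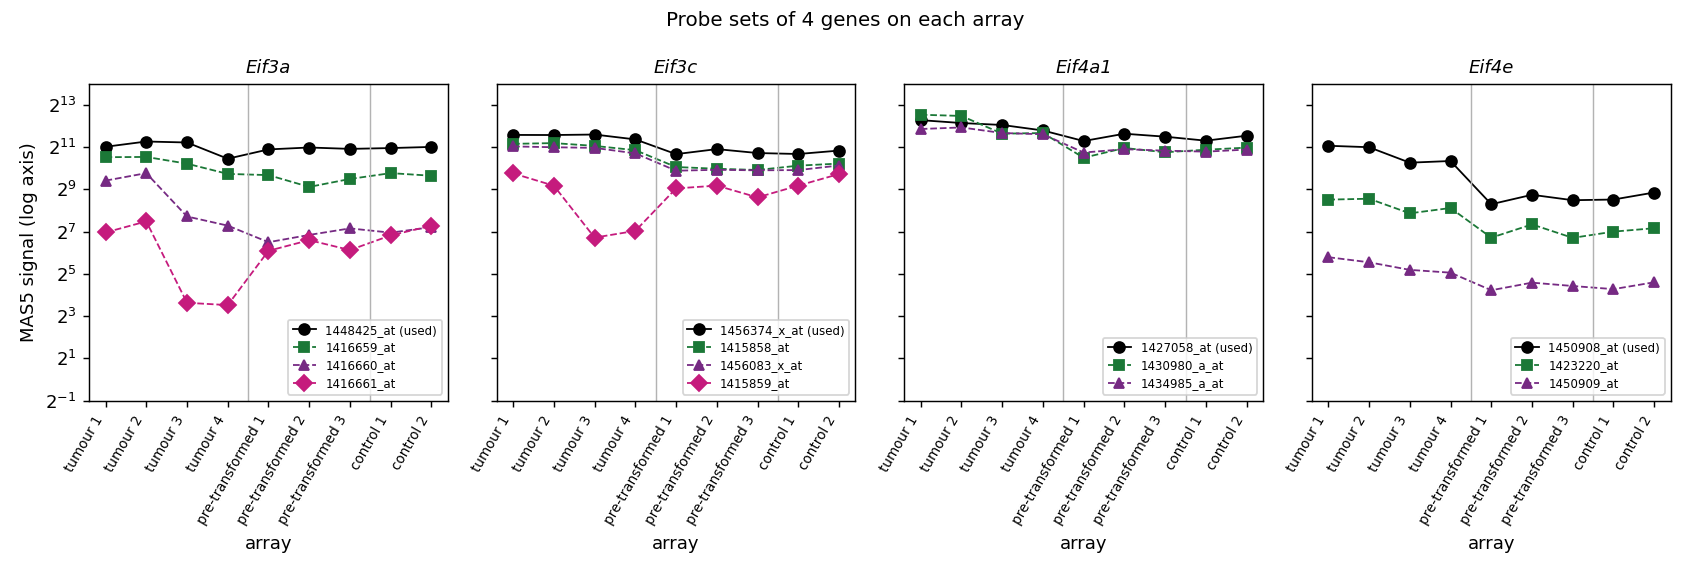
MAS5 signal on a log axis for every kept probe set of Eif3a, Eif3c, Eif4a1 and Eif4e on the 9 arrays, where lines join the values of 1 probe set and the solid line is the probe set used. Tumours 3 and 4 read 12.4 and 11.5 on 1416661_at of Eif3a and 105 and 131 on 1415859_at of Eif3c, while all probe sets of Eif4e are higher in tumours.

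Over all 32 genes with more than 1 kept probe set, Eif4e2 was the only one whose probe sets were called in opposite directions in tumours. Of the 13 such genes not called against pre-transformed cells, 6 were called on another probe set: Eif3a, Eif2ak1 and Eif2ak2 as given above, Eif4h and Eif4g2 as given below, and Eif2b2, lower on 1437428_x_at at -0.93 (limma adjusted p = 0.0437). The matching shares over all genes tested were not computed, so whether these counts are usual for the array cannot be read from them. For Eif4e, probe set 1423220_at gave a log2 change of 1.34 (SE 0.24, limma adjusted p = 0.00139) and 1450909_at one of 0.98 (SE 0.29, limma adjusted p = 0.017), both in the direction of the brightest. Another probe set of Eif5a, 1437859_x_at, gave 2.79 (SE 0.22, limma adjusted p = 2.33e-05), well above the brightest. For Eif4a1 the others gave 1.34 (SE 0.24, limma adjusted p = 0.00144) and 0.94 (SE 0.11, limma adjusted p = 0.000148). For Eif4h, which was not called on its brightest probe set, 1416941_s_at gave 0.92 (SE 0.10, limma adjusted p = 0.000114) and 1451521_x_at 0.58 (SE 0.12, limma adjusted p = 0.00349).

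In the eIF4 group, 3 of 8 genes rose and 2 fell in tumours against pre-transformed cells. Of all genes tested, 23.9% were called higher and 31.0% lower. The 2 that fell, Eif4e3 and Eif4a2, are relatives of Eif4e and Eif4a1, which rose. Eif4e, the principal cap-binding protein, had signals of 2136, 2037, 1227 and 1296 in tumours 1 to 4, against 314, 428 and 358 in pre-transformed and 366 and 461 in control cells. Every tumour was above every sorted array, 4.46-fold over pre-transformed cells, with a log2 change of 2.16 (SE 0.23, limma adjusted p = 5.51e-05). Eif4e3, a cap-binding relative, had 262, 203, 280.2 and 492 in tumours 1 to 4, against 1074, 1199 and 1110.1 in pre-transformed and 1135 and 1094 in control cells. Its tumours were all below the sorted arrays, 3.85-fold lower than pre-transformed cells, with a log2 change of -1.95 (SE 0.25, limma adjusted p = 0.000167). Eif4b, which stimulates the helicase, had 2611, 2489.5, 2499 and 2089 in tumours 1 to 4, against 1013, 938 and 959 in pre-transformed and 1045 and 1060.4 in control cells, without overlap and with a log2 change of 1.32 (SE 0.11, limma adjusted p = 2.31e-05).

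The helicase genes Eif4a1 and Eif4a2 also went apart. Eif4a2 had signals of 2120.4, 1912, 2379.6 and 1794 in tumours 1 to 4, against 3344, 3227 and 2926 in pre-transformed and 2657 and 2192 in control cells. The tumours were below the pre-transformed cells but overlapped the controls, with log2 changes of -0.63 (SE 0.13, limma adjusted p = 0.00252) against pre-transformed cells and -0.24 (SE 0.15, limma adjusted p = 0.202) against controls. Eif4a1 had 4947, 4502, 4224 and 3527 in tumours 1 to 4, against 2494, 3170.3 and 2878 in pre-transformed and 2524 and 2971 in control cells. It was higher in tumours by 0.59 (SE 0.14, limma adjusted p = 0.00562) on the log2 scale, a call that was lost with arrays centred on their median (0.33) or after quantile normalization (0.12). The call of Eif4a2 was lost with arrays centred on the genes tested (-0.34). Eif4g3, a scaffold, had a log2 change of -0.65 (SE 0.27, limma adjusted p = 0.0597), and Eif4g2, a scaffold relative that does not bind eIF4E, one of 0.05 (SE 0.11, limma adjusted p = 0.736). Neither was called in the main fit. Eif4g3 was called lower with median centring, with the replicate block, without tumour 3 and without tumour 4. Its log2 changes ran from -1.35 to -0.32 over the alternatives. Eif4g2 was called lower after quantile normalization, at -0.50. On another probe set, 1428362_at, Eif4g2 was called higher, at 0.57 (SE 0.17, limma adjusted p = 0.0212) against pre-transformed cells and 0.69 (SE 0.20, limma adjusted p = 0.0198) against controls. Eif4h, a helper of the helicase, had a log2 change of 0.29 (SE 0.13, limma adjusted p = 0.079).

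Promoters of the genes tested, called or not, were examined for CACGTG, the E-box that Myc binds. Myc itself read 1206, 1486, 1723 and 1192 in tumours 1 to 4, against 116, 53.3 and 67.8 in pre-transformed and 88 and 59.4 in control cells. The tumours were far above all sorted arrays, with a log2 change of 4.21 (limma adjusted p = 7.56e-06) against pre-transformed cells. RefSeq promoter windows of 250 bases before to 50 after each start site (GRCm38.p6) matched 35 of the 44 genes. The motif reads the same on both strands. It was present in 9 of these 35 genes (25.7%), in 11.8% of the 9453 tested genes with a window, and in 8.09% of all 27025 genes with a window. Counted by window rather than by gene, it was present in 7.15% of all 32851 windows. By call, it was present in 4 of 18 genes that rose (22.2%), 1 of 4 that fell and 4 of 13 not called (30.8%) in tumours against pre-transformed cells, and in 12.9% of all genes that rose. A match is a run of letters and not a site shown to be bound, and a part of Myc in these changes was not tested. The motif also lay in windows of Eif5a, which rose, and of Eif3a, Eif3f, Eif4h and Eif5a2, which were not called. Those sequences are not shown. The sequences below are examples that hold the motif, in capitals, before the start site of Eif4e, of Eif4a1 and Eif3k, which also rose, and of Eif1b, which fell. They are written 5′ to 3′ on the strand of the gene. In Eif4e all 250 bases before the start are given, with the motif beginning 228 and 64 bases before it. It begins 189 bases before the start in Eif4a1, 44 in Eif3k and 24 in Eif1b.
Eif4e, GRCm38.p6 chr3:138527018-138527267, plus strand: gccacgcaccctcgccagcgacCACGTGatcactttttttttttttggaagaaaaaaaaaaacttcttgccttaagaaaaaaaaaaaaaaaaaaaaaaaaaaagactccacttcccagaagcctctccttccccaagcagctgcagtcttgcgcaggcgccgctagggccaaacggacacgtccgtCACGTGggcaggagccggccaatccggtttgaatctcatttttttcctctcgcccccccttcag
Eif4a1, GRCm38.p6 chr11:69672580-69672639, minus strand: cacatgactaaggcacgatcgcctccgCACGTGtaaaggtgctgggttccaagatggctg
Eif3k, GRCm38.p6 chr7:28981900-28981959, minus strand: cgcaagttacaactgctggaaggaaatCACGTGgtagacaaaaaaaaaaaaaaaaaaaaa
Eif1b, GRCm38.p6 chr9:120492555-120492605, plus strand: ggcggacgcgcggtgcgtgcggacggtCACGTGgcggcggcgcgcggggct

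On the probe sets used, Eif4ebp1 had the largest log2 change of the 44 genes in tumours against pre-transformed cells. With the mean of its probe sets its change was 1.90, below those of Eif2a (2.02), Eif2b3 (2.01), Eif1a (1.98) and Eif4b (1.92). Its protein, 4E-BP1, sequesters eIF4E when it is not phosphorylated. Signals were 530.1, 942, 423 and 287 in tumours 1 to 4, against 46.5, 71.5 and 35 in pre-transformed and 53.6 and 47.1 in control cells. Every tumour was far above every sorted array, 10.2-fold over pre-transformed cells, with a log2 change of 3.34 (SE 0.38, limma adjusted p = 8.23e-05). The sorted signals of Eif4ebp1 were dim, at a level like those of Eif2ak2 and Eif5a2, which limits how well the size of the fold is known. Another probe set, 1417562_at, read 289, 604, 248 and 152 in tumours 1 to 4, against 55.4, 60.2 and 51.3 in pre-transformed and 44.1 and 36.3 in control cells, and a dim one, 1417563_at, stayed between 6.0 and 20.2 on all arrays. The log2 change of 1417562_at was 2.36 (SE 0.39, limma adjusted p = 0.000942). Eif4ebp2, the relative with the same function, had 527, 517, 928 and 782 in tumours 1 to 4, against 831, 759 and 799 in pre-transformed and 852 and 912 in control cells. Tumours 1 and 2 were below the sorted arrays and tumours 3 and 4 within or near their range, with a log2 change of -0.25 (SE 0.21, limma adjusted p = 0.317).

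The other repressors of eIF4E changed less. Eif4e2, also called 4EHP, binds caps but not the scaffold and so represses translation. It had 863, 867, 605 and 489 in tumours 1 to 4, against 330.2, 392 and 374 in pre-transformed and 408 and 450.1 in control cells. The tumours were above all sorted arrays, with a log2 change of 0.91 (SE 0.21, limma adjusted p = 0.00445). Eif4e2 rose on its 2 brightest probe sets and fell on 2 others. Of these, 1455108_at read 55.9, 85.2, 89.4 and 61.2 in tumours 1 to 4, against 122, 149 and 138 in pre-transformed and 127 and 116 in control cells, with a log2 change of -0.93 (SE 0.23, limma adjusted p = 0.00741), and 1435804_at gave -0.98 (SE 0.29, limma adjusted p = 0.0198). Against controls, the rise of Eif4e2 lost its call under 9 of the 20 alternatives and turned under 1. Eif4enif1, which encodes 4E-T, a protein that carries eIF4E into the nucleus and silences mRNA, had 286, 316, 382 and 372 in tumours 1 to 4, against 504, 498 and 387 in pre-transformed and 483 and 453 in control cells. All tumours were below the sorted arrays, with a log2 change of -0.45 (SE 0.16, limma adjusted p = 0.0372) against pre-transformed cells and -0.47 (SE 0.18, limma adjusted p = 0.0563) against controls. Its call was the least stable of the 5 falls, lost under 10 of the alternatives tried.

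Of the 3 remaining genes tested, Eif5a rose. It encodes the hypusinated factor that helps ribosomes through difficult peptide bonds. It had signals of 7728, 6577, 7559 and 5709.7 in tumours 1 to 4, against 3622, 4132 and 3505 in pre-transformed and 3809 and 4117 in control cells, without overlap and with a log2 change of 0.87 (SE 0.13, limma adjusted p = 0.000338). Its relative Eif5a2 was dim, with 61.8, 84.7, 27.5 and 86.5 in tumours 1 to 4, against 41.9, 36.7 and 43.2 in pre-transformed and 39.2 and 51.6 in control cells. Tumour 3 was the lowest of all arrays for Eif5a2, the other tumours were the highest, and the log2 change was 0.55 (SE 0.38, limma adjusted p = 0.245). Eif6, which keeps the large ribosomal subunit from joining too early, had 1173, 937, 736 and 529.9 in tumours 1 to 4, against 557, 667 and 639 in pre-transformed and 574 and 721 in control cells. Its groups overlapped, with a log2 change of 0.39 (SE 0.24, limma adjusted p = 0.2). Without tumour 4, Eif6 was called higher at 0.59, and without tumour 3, Eif5a2 at 0.92.

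Pairs of genes were compared within each array, since a ratio of 2 signals on 1 array does not depend on its scaling. The pairs were chosen after their values were seen, so no test is given, and only differences between arrays can be read, since probe sets differ in brightness. The log2 ratio of Eif4e to Eif4e3 was 3.02, 3.33, 2.13 and 1.40 in tumours 1 to 4, against -1.77, -1.49 and -1.63 in pre-transformed and -1.63 and -1.25 in control cells. Every tumour was above every sorted array in this ratio, and the group means differed by 4.10 between tumours and pre-transformed cells. Eif1ax and Eif1b are not relatives, since they encode an eIF1A protein and a relative of eIF1. Their log2 ratio was 1.58, 1.38, 0.84 and 1.32 in tumours 1 to 4, against -1.19, -1.44 and -1.40 in pre-transformed and -0.91 and -0.94 in control cells, a difference of 2.62. For Eif4a1 over Eif4a2 it was 1.22, 1.24, 0.83 and 0.98 in tumours 1 to 4, against -0.42, -0.03 and -0.02 in pre-transformed and -0.07 and 0.44 in control cells, a difference of 1.22. The tumours were again above every sorted array in both pairs. Eif5a over Eif5a2 did not separate the groups, with 6.97, 6.28, 8.10 and 6.05 in tumours 1 to 4, against 6.43, 6.82 and 6.34 in pre-transformed and 6.60 and 6.32 in control cells, a difference of 0.32.

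Eif4ebp1 over Eif4ebp2 gave log2 ratios of 0.01, 0.87, -1.14 and -1.45 in tumours 1 to 4, against -4.16, -3.41 and -4.51 in pre-transformed and -3.99 and -4.28 in control cells, a difference of 3.60. Eif4e over its inhibitor Eif4ebp1 gave 2.01, 1.11, 1.54 and 2.18 in tumours 1 to 4, against 2.76, 2.58 and 3.36 in pre-transformed and 2.77 and 3.29 in control cells, a difference of -1.19. Every tumour was below every sorted array in this ratio. With 1417562_at for Eif4ebp1 the groups overlapped, at 2.88, 1.75, 2.31 and 3.09 in tumours 1 to 4, against 2.50, 2.83 and 2.80 in pre-transformed and 3.05 and 3.67 in control cells.

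**Figure D4:**
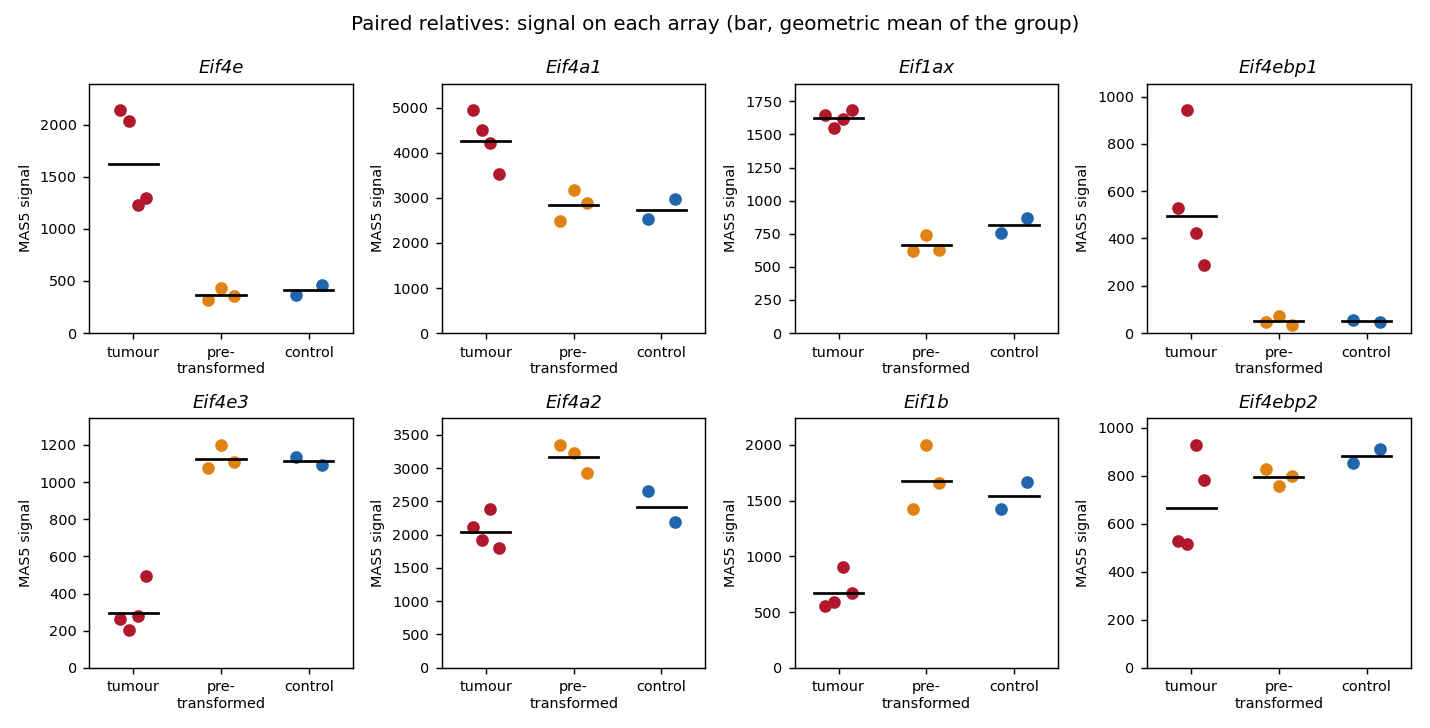
MAS5 signal of 4 genes (top), each with a second gene below it (bottom), on every array, each panel with its own axis from 0, points for arrays and bars for the geometric mean of the group. The lower gene is a relative of the upper one, except for Eif1b below Eif1ax. Eif4e, Eif4a1, Eif1ax and Eif4ebp1 are higher in all 4 tumours than on any sorted array, while Eif4e3 and Eif1b are lower, Eif4a2 overlaps the controls and Eif4ebp2 overlaps both sorted groups.

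Neighbouring steps of translation were counted over lists of genes, to be read against the 23.9% and 31.0% of all genes tested that were called higher and lower. Of 17 tested genes of elongation and termination, 11 rose and 2 fell in tumours against pre-transformed cells, with a median log2 change of 0.82. Eef1b2, the exchange factor of eEF1A, had 4699, 4395, 4717 and 4302 in tumours 1 to 4, against 1873, 1594 and 1744 in pre-transformed and 1923 and 2156 in control cells, a log2 change of 1.38 (SE 0.10, limma adjusted p = 1.32e-05). The release factor gene Gspt1 rose by 1.58 and Eef1e1, of the aminoacyl-tRNA synthetase complex, by 1.49. Of 6 other initiation cofactors, 4 rose and none fell, among them Denr at 0.95 and the helicase genes Dhx29 at 1.02 and Ddx3x at 0.37. Of 3 mitochondrial initiation genes, none rose and 2 fell, Mtif3 to a log2 change of -1.08 and Mtfmt to -0.66, with Mtif2 not called at 0.17.

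Genes that link mTOR signalling to translation were mostly lower. Of 17 tested, 2 rose and 10 fell, with a median log2 change of -0.91. The list pools genes that promote mTORC1 activity with genes that restrain it, so its count and median give no direction of signalling. Among the falls were Mtor at -0.92 and Rptor at -1.18, which belong to mTORC1. They also included Tsc1 at -1.12 and Akt1s1 at -0.91, which restrain it. Mknk1, a kinase that phosphorylates eIF4E, had 90.5, 95, 142 and 127 in tumours 1 to 4, against 454, 502 and 442 in pre-transformed and 456 and 386 in control cells. Rictor, of the mTORC2 complex, had 284, 217, 306 and 400.4 in tumours 1 to 4, against 921, 804 and 890.2 in pre-transformed and 701 and 669 in control cells. In both genes all tumours were below all sorted arrays, with log2 changes of -2.06 (SE 0.19, limma adjusted p = 2.97e-05) for Mknk1 and -1.56 (SE 0.19, limma adjusted p = 0.000126) for Rictor. Rheb, the GTPase that activates mTORC1, ran the other way, with a log2 change of 1.16 (SE 0.13, limma adjusted p = 7.72e-05). Mknk2, another kinase of eIF4E, was brighter than Mknk1, with mean signals of 1554 in tumours and 2209 in pre-transformed cells. It was not called, at a log2 change of -0.51 (SE 0.25, limma adjusted p = 0.112). Among 13 tested genes of the integrated stress response, which phosphorylated eIF2 sets off, 3 rose and 5 fell. Gadd45a changed by -2.61 and Dnajc3, which inhibits eIF2 kinases, by -1.51 on the log2 scale. Asns, the asparagine synthetase gene, had 281, 1669, 193 and 330.1 in tumours 1 to 4, against 3.7, 0.6 and 4.2 in pre-transformed and 2.8 and 5.6 in control cells. Its sorted signals were at the level of Bacillus control probe sets, which reached 5.0 on those arrays, so that no fold is given. In pre-transformed against control cells, none of the genes of these 5 lists was called.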

How the data were processed

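RNA of 9 mice was measured on 1 oligonucleotide array each. The authors deposited 1 table of signal intensity per probe set, made with MAS5 per the submitters' processing notes, on a linear scale; the sources used here do not give its version. The table held 45101 probe sets, and 64 control probe sets were left out of the tests. Values of 0 were set to 0.1 and log2 was taken, with no further normalization. A probe set was kept if it was at or above the median of its array on at least 2 arrays. Names came from the platform's annotation, and each gene was represented by its kept, singly named probe set with the highest mean. Testing used lmFit and eBayes (trend = TRUE) of limma 3.58.1, run in R 4.3.3, and p was adjusted by Benjamini and Hochberg over the 11644 genes tested. The fit of pre-transformed against control cells held the 5 sorted arrays, and that of both tumour comparisons all 9. Values for single probe sets came from the same fit over all 26421 kept probe sets. The procedure was tested on simulated data.

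The genes, roles and neighbouring lists were chosen with earlier results of these data known. Values on every array were given, in each role, for the 3 tested genes with the smallest p in tumours against pre-transformed cells, for every gene called between pre-transformed and control cells, and for genes called against the majority of their role. Single values of Eif4a1, Eif4ebp2, Eif3a and further probe sets were added after they were seen. Of the neighbouring lists, the 3 genes with the smallest p were named, and Mknk2 was added beside Mknk1. Mtor, Rptor, Tsc1 and Akt1s1 were added after their values were seen. Replicates are different mice, and their numbers name no shared mouse or batch. The alternatives changed the normalization (quantile, median centring, an offset of 16), the filter (none, stricter), the probe sets (their mean, or none with a suffix), the fit (no trend, robust, other arrays, the replicate number as a block) and the arrays (each left out in turn). After seeing the data, a floor of 32, centring on the genes tested and a fit with tumour 2 alone for the tumours were added. Promoters came from RefSeq (GRCm38.p6). Python 3.11.15 with matplotlib 3.10.9 drew the figures.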

Additional observations from a re-analysis of the deposited data

Results flagged for a closer look

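Of the 44 genes tested, 1 had a tumour set apart from the other 3 by Dixon's rule. Eif3c read 2630.5 in tumour 4, while the other tumours lay between 3038 and 3087, so that the gap made up 0.901 of the range of the 4 tumours, above Dixon's limit for 4 samples. Chance alone flags about 1 group in 20, so 1 flag among 44 genes is no more than chance gives. Tumour 4 was still above every sorted array for this probe set of Eif3c.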

How the results depend on the processing

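Of the 29 genes called in tumours against pre-transformed cells, 23 stayed called under each of the 21 alternatives that tested them, and of the 26 called in tumours against controls, 15 under each of 20; without suffixed probe sets, 35 of the 44 genes were tested. In tumours against pre-transformed cells, centring on the genes tested left 3 genes lower. In tumours against controls, median centring gave 13 higher and 7 lower, and quantile normalization 6 lower. The fit with tumour 2 as the only tumour holds no spread between tumours, so its counts are not given. Leaving out 1 array at a time gave 3 to 5 genes lower in tumours against controls, and 0 to 1 higher in pre-transformed against control cells. Median centring moved the median of all genes to -0.38 in tumours against pre-transformed cells and to -0.46 against controls. With the replicate block, 25 genes rose and 5 fell in tumours against pre-transformed cells, and 23 rose and 4 fell against controls; none was called in pre-transformed against control cells. Same-numbered arrays had correlations of deviations of -0.02 to 0.08 over genes. The labels name different mice, and a shared batch was not tested. Directions turned for Eif4e2 without suffixed probe sets, to -0.93 against pre-transformed cells and -0.76 against controls, for Eif1ax likewise, to -0.11 against controls, and for Eif4g2 after quantile normalization, to -0.50 and -0.43. The cause was not tested. Log2 changes that were not called in either setting differed in sign between them for 13, 14 and 24 genes of the 3 comparisons. Signals near the background, such as those of Eif2ak2, Eif2ak4 and Eif5a2, limit what their changes can show. The dim sorted signals of Eif4ebp1 limit the size of its change in the same way.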
